A study of Mus musculus with 4 samples.

Results

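The nuclear-encoded subunits of the mitochondrial respiratory chain were followed in the cerebellum of control mice and of mice with a conditional knockout of Derl2. Derl2 is the gene of Derlin-2, which sits in the endoplasmic reticulum membrane and helps to clear misfolded proteins. The members were a list of 49 genes, 31 of complex I, 4 of complex II, 7 of complex III and 7 of complex IV, and a probe belonged to a member when its RefSeq accession mapped to that gene. By this rule 48 of the 49 genes had a probe, and 46 were tested, out of 16524 genes tested in all. The data were 4 one-colour Agilent arrays, each hybridised with Cy3-labelled RNA of the cerebellum of C57BL/6 mice at postnatal day 28, and whether a sample was 1 animal or a pool is not given in the sources used here. The 2 control samples were Derlin-2flox/flox, and whether they also carried Cre is not given in the sources used here. The 2 knockout (KO) samples came from a cross of floxed mice with mice whose Cre recombinase is driven by the nestin promoter. That promoter is active in neural precursors, so neurons and macroglia recombine, while microglia and blood cells arise from other lineages. The tissue was bulk, so fewer cells of a type and less RNA per cell cannot be told apart.

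The respiratory chain passes electrons from NADH and succinate to oxygen and pumps protons out of the mitochondrial matrix. Complex I oxidises NADH, complex II oxidises succinate, complex III passes electrons from ubiquinol to cytochrome c, and complex IV passes them on to oxygen. Some subunits are made from mitochondrial DNA, but those listed here are transcribed in the nucleus. Neurons of the cerebellum depend on this chain for the ATP that ion pumping consumes.

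Values are log2 of the processed signal of a probe minus the 75th percentile of its array, so 0 marks a probe at that percentile and a difference of −1 is a halving. Where a gene had several probes, the brightest that passed the filter was used. Groups are said to be apart where their values did not overlap. On the 4 arrays 66.4% to 69.4% of spots were well above background, and 0 spots were saturated. All 4 arrays were on 1 slide, with the controls at the first positions and the knockouts at the last, so position and group cannot be told apart. Derl2, the check of the labels, read 2.13 and 2.20 in control against 0.81 and 0.70 in KO. The difference was −1.41, so part of the Derl2 signal remained in KO. The defining markers of the tissue were present: Pcp2 and Calb1 of Purkinje cells and Gabra6 and Cbln1 of granule cells lay between 5.10 and 7.79 on every array. Control replicate 2 stood apart in markers of choroid plexus, the epithelium that makes cerebrospinal fluid: Ttr read 6.82 there and between −2.87 and 0.33 on the other arrays.

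The transcripts of the respiratory chain lay slightly lower in KO. Of the 46 tested members, 46 had a lower mean in KO with the 75th percentile scaling, 40 after quantile normalization and 39 after scaling to spike-in probes. Of all genes, 63.9%, 55.9% and 45.4% were lower under these scalings. The median difference over the members was −0.16, so that the signal in KO was 89.4% of control, against −0.064 over all 16524 genes. Single differences ran from −0.46 for Ndufb10 to −0.013 for Cox7b. In 14 members the difference was below −0.2, in 23 it lay between −0.2 and −0.1, and in 9 it was above −0.1.

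No single member passed the test, and neither did Derl2, the knocked-out gene (limma adjusted p 0.273). With limma and Benjamini-Hochberg adjustment over all 37516 probes, 0 members and 0 probes (0%) had an adjusted p under 0.05, and the adjusted p of the members lay between 0.327 and 0.966. On the brightest probes 2 members, Sdhd and Ndufs8, had an unadjusted p under 0.05, where 8.81% of all genes reached that level. By this count the members did not exceed the background. With the variances fitted to an intensity trend and robust estimation the count was 23 of the 46, where 13.0% of all genes reached it, 13 of complex I, 2 of complex II, 5 of complex III and 3 of complex IV, and the smallest adjusted p was 0.165, for Sdhd.

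The groups were apart in most members. In 43 of the 46 members (93.5%) the groups were apart with KO lower, and in 0 with KO higher, while 32.1% of all genes were apart with KO lower and 13.8% with KO higher. Ndufs4, Ndufa6 and Cox7b overlapped. The count depended on the scaling of the arrays: after quantile normalization 28 members were apart with KO lower, where 24.9% of all genes were, and after spike-in scaling 22, where 17.1% of all genes were. Between the 2 controls the median absolute gap of a member was 0.044, and between the knockouts it was 0.054. In 11 members the gap between the arrays of 1 group was larger than the difference between the groups.

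**Figure D1:**
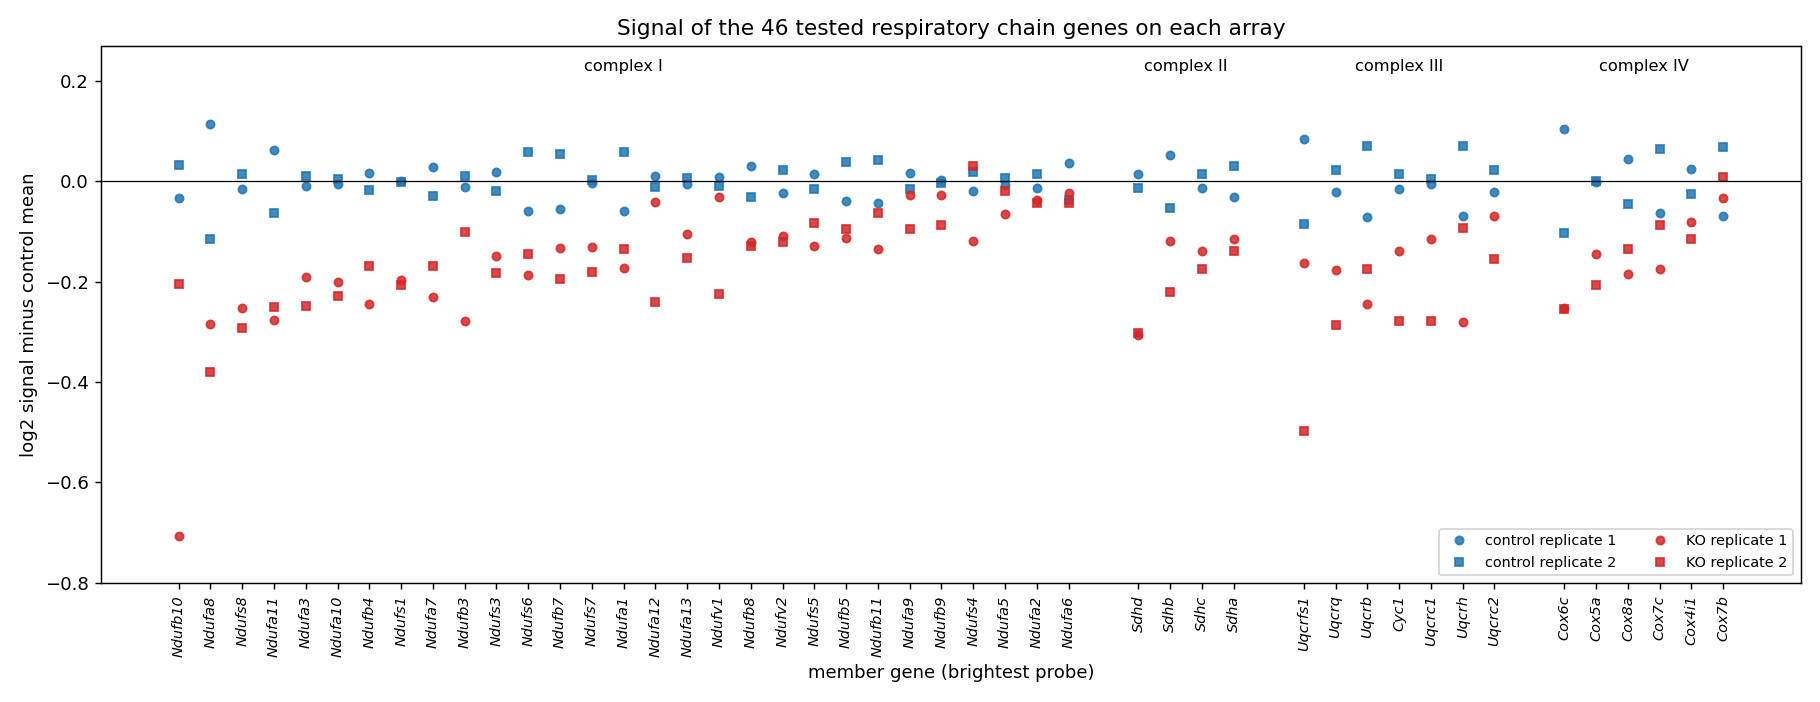
Log2 signal of each of the 46 tested members minus its control mean (vertical axis), by gene and complex (horizontal axis), with blue points for the control arrays, red points for the KO arrays, circles for replicate 1 and squares for replicate 2. With the 75th percentile scaling shown, the red points lie below the blue ones in 43 genes and overlap them in Ndufs4, Ndufa6 and Cox7b.

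The arrays were next compared pair by pair. The median over the members was −0.13 for KO replicate 1 against control replicate 1 and −0.15 against control replicate 2. For KO replicate 2 these medians were −0.16 and −0.17. Each KO array thus lay below each control array, with 44 or 45 of the 46 members lower in every pair. The pairs share arrays and are not independent. Without control replicate 2, the array with the choroid plexus signal, the median over the members was −0.15, and no other array moved it outside −0.17 to −0.14 when left out.

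Complex I, the largest complex, holds 29 of the tested members, and the median difference was −0.15. In 27 of the 29 the groups were apart with KO lower, where 32.1% of all genes were. The core subunits of complex I carry the electrons. Ndufv1, which binds the flavin that takes electrons from NADH, read 6.07 and 6.05 in control and 6.03 and 5.83 in KO. The second KO array was the lower, and the difference of −0.13 had an SE of 0.12. Ndufv2, an iron-sulfur subunit next to it, read 5.20 and 5.24 against 5.11 and 5.10, a difference of −0.11. Ndufs1, which passes the electrons on through several iron-sulfur clusters, read 5.15 and 5.14 in control and 4.95 and 4.94 in KO. Both pairs of replicates of Ndufs1 were nearly the same, and the difference of −0.20 (SE 0.097) had a 95% interval from −0.46 to 0.058.

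On the brightest probes, the core subunits nearer to ubiquinone gave the complex its smallest p. Ndufs8, which holds iron-sulfur clusters on the way to ubiquinone, read 5.30 and 5.33 in control and 5.06 and 5.02 in KO. Its group means were 5.32 ± 0.022 (SD, n = 2) and 5.04 ± 0.029 (SD, n = 2), and the groups were far apart relative to their spread. The difference was −0.27 (SE 0.098, 95% interval −0.54 to −0.0080; limma adjusted p 0.348), which is a signal 17.2% lower. Ndufs7, which holds the last iron-sulfur cluster before ubiquinone, differed by −0.16, from 6.12 and 6.12 to 5.99 and 5.94. Ndufs3, a core subunit without a cofactor, differed by −0.17, from 5.64 and 5.60 to 5.47 and 5.44. All 6 core subunits listed here were apart with KO lower, where 32.1% of all genes were.

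Among the accessory subunits, which surround the core and support assembly and stability, the differences were wider. Ndufb10, singled out after its values were seen, had the largest difference of all members, −0.46 (SE 0.20; limma adjusted p 0.395). It read 6.15 and 6.22 in control and 5.48 and 5.98 in KO, so most of the difference came from KO replicate 1. Ndufa8, a subunit on the face towards the intermembrane space, differed by −0.33 (SE 0.13), from 3.39 and 3.16 to 2.99 and 2.90. Ndufa11, a membrane subunit, differed by −0.26 (SE 0.11), from 3.27 and 3.14 to 2.93 and 2.95. Both had their groups apart with KO lower, where 32.1% of all genes were. Ndufa11 had a spot on or near a patch of raised local background, and without such spots it was not tested. Control replicate 1 had 1350 such spots, control replicate 2 had 32, and each KO array had 0.

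The accessory subunits of the matrix arm, the part that reaches into the matrix, included the members of complex I that differed least. Ndufa6, Ndufa2, Ndufa5, Ndufs4 and Ndufa9 differed by −0.033, −0.040, −0.042, −0.045 and −0.061. For Ndufs4, a subunit needed for a stable matrix arm, the knockouts read 4.34 and 4.49 on either side of the controls at 4.44 and 4.48. These 5 genes, with Ndufb9 (−0.057) of the membrane arm, lay higher in KO after spike-in scaling, as all but Ndufa9 did after quantile normalization. The other accessory subunits of this arm were Ndufa7 at −0.20, Ndufs6 at −0.17 and Ndufa12 at −0.14. Over the 14 matrix arm members the median was −0.13, and 12 were apart with KO lower. Over the 15 tested membrane arm members it was −0.16, and 15 were apart with KO lower. Of all genes, 32.1% were apart with KO lower. The arms were divided for description, after the values were known, and were not tested against each other.

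The remaining subunits of the membrane arm, the part within and along the inner membrane, lay close together. Ndufa3, Ndufa10, Ndufb4 and Ndufb3 differed by −0.22, −0.21, −0.21 and −0.19. Ndufb7, Ndufa1, Ndufa13 and Ndufb8 differed by −0.16, −0.15, −0.13 and −0.12. Ndufs5, Ndufb5 and Ndufb11 differed by −0.11, −0.10 and −0.099. In all of these 11 genes both KO arrays lay below both control arrays. A pair of complex I members had a spot with an outlier flag and so no test. Ndufb6 read 4.37 on control replicate 1 and 4.13 and 4.11 in the knockouts, and the flagged spot on control replicate 2 read 4.48. Ndufb2 read 5.23 on control replicate 2 and 5.03 on each KO array. Its flagged spot on control replicate 1 read 4.08, far below the rest. The Ndufb2 probe also had a spot on or near a patch of raised local background.

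Complex II is made entirely from nuclear genes and also works in the citric acid cycle. All 4 members were apart with KO lower, where 32.1% of all genes were, and the median difference was −0.16. Sdha, the flavoprotein that oxidises succinate, read 4.68 and 4.74 in control and 4.59 and 4.57 in KO, a difference of −0.13. Sdhb, the iron-sulfur subunit, read 5.87 and 5.76 against 5.70 and 5.59, a difference of −0.17 (SE 0.11). In Sdhb the gap between replicates was 0.11 in the controls and 0.10 in the knockouts.

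The membrane anchors of complex II, Sdhc and Sdhd, hold its ubiquinone site. Sdhd read 4.56 and 4.53 in control and 4.24 and 4.24 in KO. The KO arrays nearly coincided, and the difference of −0.30 (SE 0.097, 95% interval −0.57 to −0.043; limma adjusted p 0.327) had the smallest p of all members on the brightest probe. The signal in KO was 19.0% lower. Sdhc read 3.57 and 3.60 against 3.44 and 3.41, a difference of −0.16.

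Complex III had the lowest median of the 4 complexes, −0.21. All 7 members were apart with KO lower, where 32.1% of all genes were. The redox subunits of complex III are Cyc1, which holds cytochrome c1, and Uqcrfs1, the Rieske iron-sulfur protein. Cyc1 read 5.50 and 5.53 in control and 5.37 and 5.23 in KO, a difference of −0.21 (SE 0.11). Uqcrfs1 read 4.69 and 4.52 against 4.44 and 4.10, a difference of −0.33 (SE 0.16; limma adjusted p 0.431). Its KO arrays were 0.34 apart, more than the groups, with means of 4.60 ± 0.119 (SD, n = 2) and 4.27 ± 0.237 (SD, n = 2).

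The other members of complex III support these. Uqcrq, a small subunit near the ubiquinone sites, read 6.88 and 6.92 in control and 6.72 and 6.61 in KO, a difference of −0.23 (SE 0.10). Uqcrb, another small subunit, differed by −0.21, and the core proteins Uqcrc1 and Uqcrc2 by −0.20 and −0.11. Uqcrh, the hinge protein at cytochrome c1, differed by −0.19. The median of complex III was −0.16 and −0.15 in the pairs with KO replicate 1 and −0.26 and −0.28 in those with KO replicate 2. The KO arrays had a median gap of 0.14 in complex III and of at most 0.047 in each of the other complexes. Without KO replicate 1 the median of complex III was −0.28, and without KO replicate 2 it was −0.16.

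In complex IV, cytochrome c oxidase, the median difference over 6 members was −0.15. Of the 6, 5 were apart with KO lower, where 32.1% of all genes were. Cox4i1, the common isoform of subunit IV, read 7.34 and 7.29 in control and 7.24 and 7.20 in KO, a difference of −0.098 (SE 0.099). Cox5a, a regulatory subunit, read 6.89 and 6.90 against 6.75 and 6.69, a difference of −0.18 (SE 0.099). Cox8a, a small subunit, read 7.73 and 7.64 against 7.50 and 7.55, a difference of −0.16. All 3 were apart with KO lower.

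Cox6c, another small subunit, read 5.94 and 5.73 in control and 5.58 and 5.58 in KO. Its difference of −0.25 (SE 0.12) was the largest of the complex on the brightest probes, and the controls were 0.21 apart. Cox7b, which differed by −0.013, read 5.06 and 5.20 against 5.10 and 5.14, so the knockouts lay between the controls. Cox7b lay higher in KO by 0.048 after quantile normalization and by 0.072 after spike-in scaling. Cox5b had no probe by the naming rule and is not analysed here.

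Cox7c was the member whose probes disagreed. On the brighter probe it read 4.86 and 4.99 in control and 4.75 and 4.84 in KO, a difference of −0.13 (SE 0.11). On the dimmer probe it read 3.27 and 3.59 against 1.97 and 2.78, a difference of −1.06 (SE 0.31; limma adjusted p 0.307). Both probes had the groups apart in the same direction, but the dimmer one placed the difference far lower, and its KO arrays had an SD of 0.57. Of the 9 members with a second tested probe, 9 had that probe lower in KO too, and in 8 of them it was apart. On their brightest probes 63.9% of all genes were lower in KO, and 32.1% were apart with KO lower. The second probes read the same genes on the same 4 arrays and are not independent of the first. The other clear gap was in Ndufa10, at −0.21 on the brighter and −0.44 on the dimmer probe. The dimmer probes of Cox7c and Ndufa10 had an unadjusted limma p of 0.023 and 0.021.

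Between complexes the differences were small. The medians of complexes I, II, III and IV were −0.15, −0.16, −0.21 and −0.15, and after spike-in scaling −0.069, −0.079, −0.12 and −0.061. The array medians of a complex varied within groups by an SD between 0.010 and 0.072, and the latter belonged to complex III. The largest gap between the medians of complexes, between III and IV, was therefore of the size of the spread of complex III. No test of a score over the members was made.

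**Figure D2:**
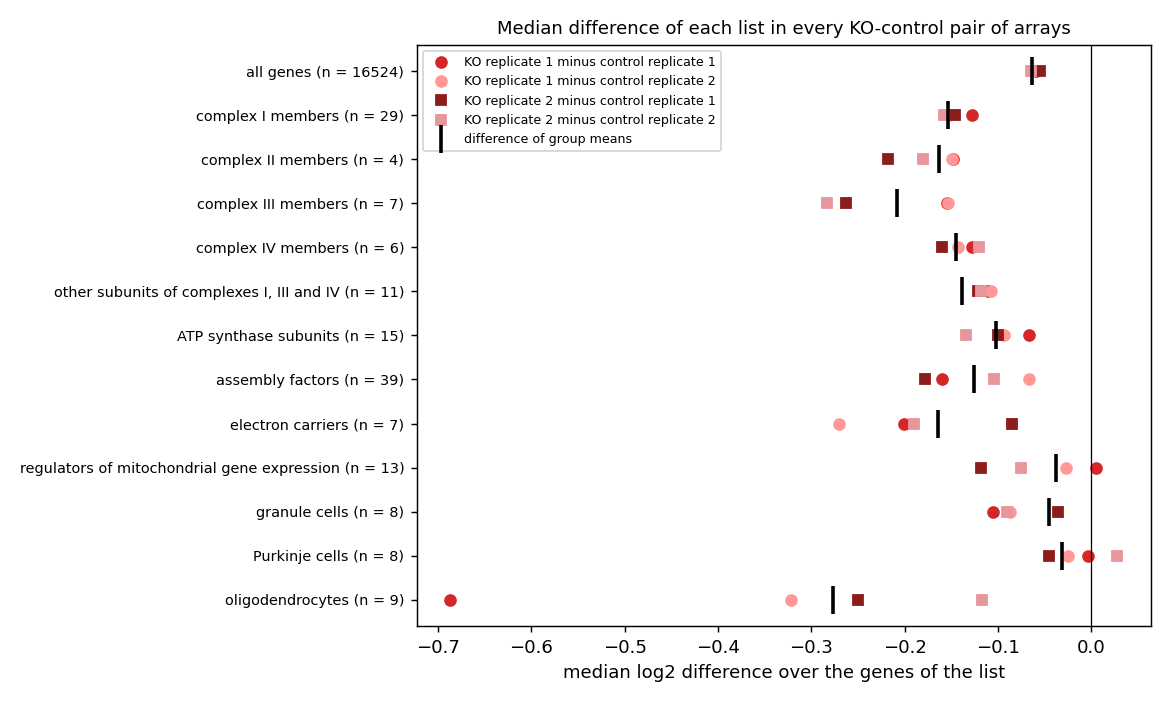
Median log2 difference over the genes of each list (horizontal axis) in each of the 4 KO-control array pairs (points) and between the group means (black bars), with the number of tested genes beside each list. The members of complexes I to IV lie between −0.28 and −0.12 in every pair, and all genes lie between −0.065 and −0.055.

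Signal strength was set beside this, because the members are bright. The mean signals of the tested members ran from 3.07 to 7.61, and 3195 genes lay in that range. Their median difference was −0.063, like that of all genes, but 39.8% of them were apart with KO lower. Among the 510 genes with a mean signal between 5 and 6, where 21 members lay, the median was −0.087 and 48.2% were apart with KO lower, against 19 of the 21 members. The part of signal strength in the count of members that were apart was not tested.

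**Figure D3:**
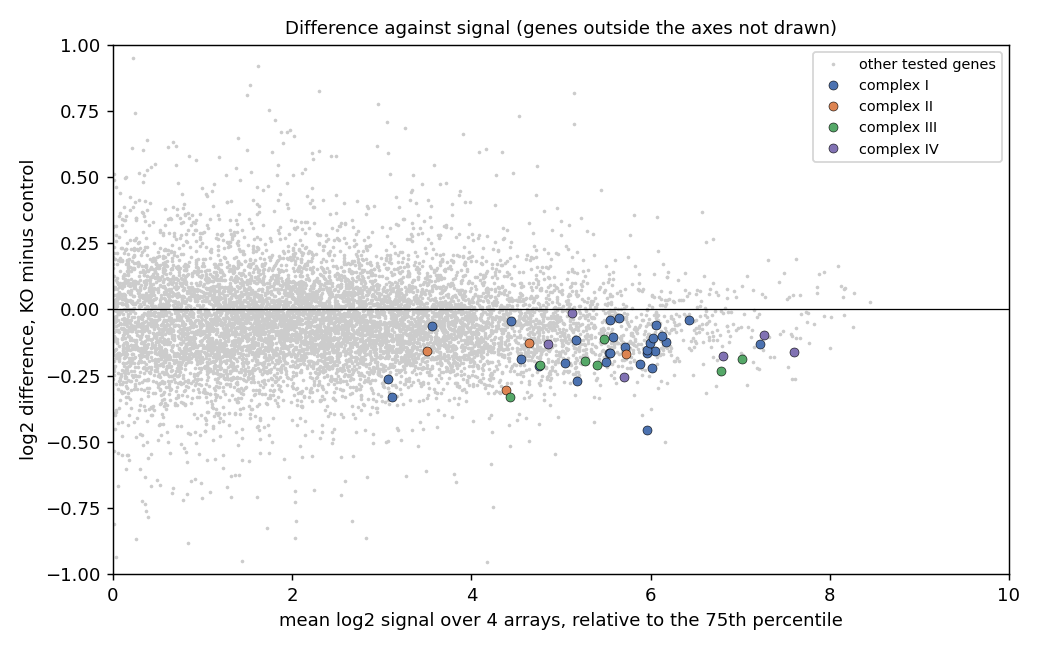
Log2 difference between KO and control (vertical axis) against the mean log2 signal over the 4 arrays (horizontal axis), with the members coloured by complex. The tested genes that fall within the axes are drawn, so genes with a mean signal below 0 are left out. With the 75th percentile scaling shown, the members lie below 0 at every signal from 3.07 to 7.61, while 7 lie above 0 after spike-in scaling.

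The rest of the pathway was read from lists of related genes. Of 12 further subunits of complexes I, III and IV, 11 were tested, and 11 were lower in KO, with a median of −0.14. In this list 8 were apart with KO lower, where 32.1% of all genes were, and the smallest p belonged to Cox6b1, at −0.30 (SE 0.10; limma adjusted p 0.341). Uqcr11, a small subunit of complex III, differed by −0.22. Of 16 genes of ATP synthase, the enzyme that uses the proton gradient to make ATP, 15 were tested, and 15 were lower, with a median of −0.10 and 13 apart. Atp5d and Atp5e, subunits of its central stalk, differed by −0.31 (SE 0.11) and −0.21 (SE 0.097).

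Assembly factors, which build the complexes but do not stay in them, formed the longest of these lists. Of 39 tested, 37 were lower in KO, where 63.9% of all genes were, with a median of −0.13. In 20 the groups were apart with KO lower and in 1 with KO higher, against 32.1% and 13.8% of all genes. Sdhaf1, an assembly factor of complex II, differed by −0.30 (SE 0.11), and Ndufaf3, one of complex I, by −0.29 (SE 0.11). Of 7 electron carriers and ubiquinone genes, 7 were lower, with a median of −0.16 and 4 apart. Cycs, the somatic cytochrome c that carries electrons between complexes III and IV, differed by −0.18, and Coq7, an enzyme of ubiquinone synthesis, by −0.31 (SE 0.11). None of these genes had an adjusted p under 0.05 with limma.

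Genes that regulate mitochondrial gene expression were read separately. Of 13 tested, 9 were lower in KO, near the 63.9% of all genes, with a median of −0.038. In 1 of them the groups were apart with KO lower, where 32.1% of all genes were. Esrra, a nuclear receptor that acts with the coactivator PGC-1alpha, differed by −0.25 (SE 0.12), from 4.42 and 4.27 to 4.15 and 4.02. Polrmt, the mitochondrial RNA polymerase, differed by −0.13 (SE 0.17). Nrf1, a transcription factor of respiratory chain genes, differed by 0.068, and Gabpa, Gabpb1 and Yy1 by −0.032, 0.042 and 0.012. No test of the difference between these lists and the members was made, and subunits made from mitochondrial DNA are not analysed here.

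Markers of the main cell types were set beside the members. For the counts that follow, 63.9% of all genes were lower in KO, 32.1% were apart with KO lower and 13.8% apart with KO higher. Over 8 granule cell markers the median difference was −0.045, with 3 apart and lower in KO and 0 higher. Over 8 Purkinje cell markers it was −0.031, with 3 apart and lower and 2 higher. Oligodendrocyte markers were lower in 8 of 9, with a median of −0.28, with 6 apart and lower and 1 higher, Ermn at 0.37. The median of these markers was −0.69 and −0.32 in the pairs with KO replicate 1 and −0.25 and −0.12 in those with KO replicate 2. Their summed linear signal was 385 to 407 times the 75th percentile in control and 343 to 380 times in KO. Microglial markers were lower in 8 of 8, with a median of −0.23, with 5 apart and lower and 0 higher. Astrocyte markers were lower in 6 of 7, with a median of −0.11, with 4 apart and lower and 0 higher. Their part in the difference of the respiratory chain was not tested. The red blood cell and choroid plexus markers were high on control replicate 2, and the members' median without that array was −0.15.

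The choice of scaling set the size of the difference. With the median of probes well above background as the scale the members' median was −0.17, and with the authors' deposited log2 values, in which 48 members were tested, it was −0.16. After quantile normalization it was −0.093, with −0.027 over all genes, and after spike-in scaling it was −0.077, with 0.021 over all genes. Relative to the median of all genes the members were lower by −0.098 under the 75th percentile and the spike-in scaling, which differ by a constant per array, and by −0.066 under quantile normalization.

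**Figure D4:**
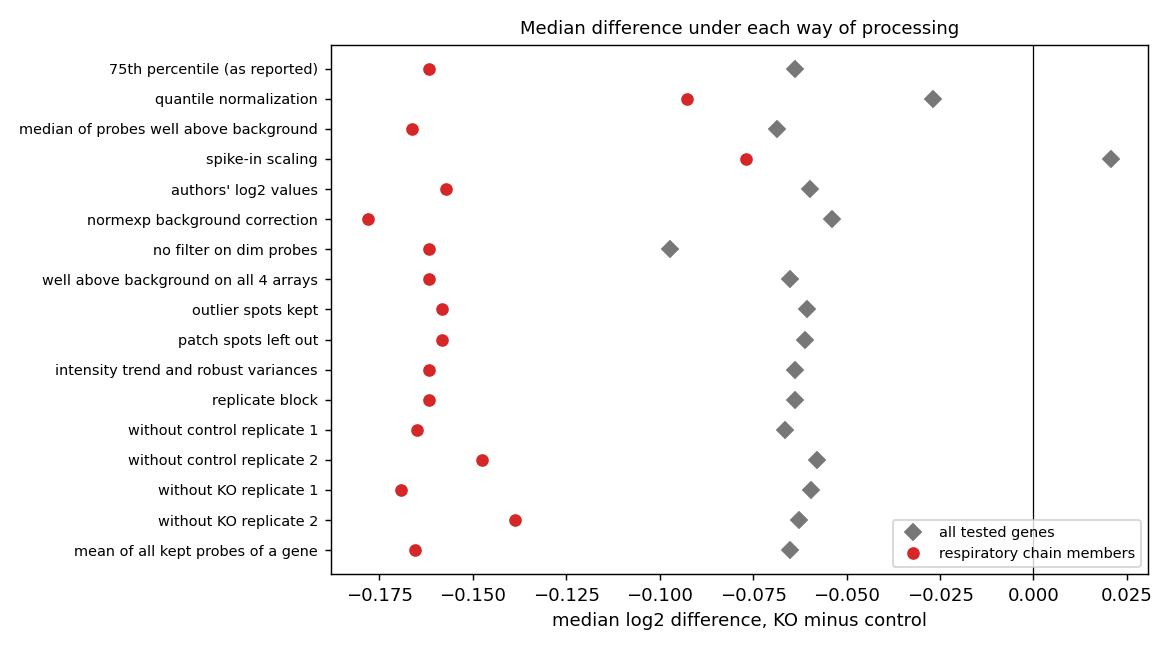
Median log2 difference (horizontal axis) over the tested members (red circles) and over all tested genes (grey diamonds) under each way of processing the arrays (vertical axis). The members lie to the left of all genes in every line, from −0.18 with normexp background correction to −0.077 with spike-in scaling.

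The promoters of the members were read last, as promoters known for sites of NRF1, of the ETS factor GABP and of YY1. The RefSeq table of assembly GRCm38.p6 gives, for each start, 250 bases before it and 50 after it, and it held 41 such promoters for 39 of the 49 genes. They were searched on both strands for an NRF1 core (GCATGCGC), an ETS core (CCGGAAG), a YY1 core (ATGGCGG) and a TATA box (TATAAA); these words do not contain each other. The NRF1 core was in 5 of the 41 member promoters (12.2%) and in 2.71% of 32851 promoters in all. The ETS core was in 8 (19.5%) against 8.86%, and the YY1 core in 9 (22.0%) against 4.05%. In Ndufa9, Ndufb5, Ndufs4, Ndufs6 and Ndufs7 the YY1 core lay after the start, and in Ndufa1, Ndufa5 and Ndufa7 before it. The TATA box was in 5 (12.2%) against 13.6%. A match is a word in the sequence and not a measured site. The promoters in all were not matched to those of the members in base composition. The part of these words in the lower signal was not tested.

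The following 100-base stretches before the start are examples of the NRF1 and ETS cores, in capitals, in members described above, and were picked after the matches and values were known. Other members also hold a core before the start, among them Ndufa6, Ndufa11, Ndufb7 and Ndufs3, and in Cox8a of complex IV the ETS core spans the start. Each is written 5′ to 3′ on the strand of the gene. Ndufa8 lies at chr2:36049339-36049438 on the minus strand, Sdhd at chr9:50603850-50603949 on the minus strand, Sdhb at chr4:140961171-140961270 on the plus strand and Uqcrh at chr4:116075071-116075170 on the minus strand, all in GRCm38.p6.
Ndufa8: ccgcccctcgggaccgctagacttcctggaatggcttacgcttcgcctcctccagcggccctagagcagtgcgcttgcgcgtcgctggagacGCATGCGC
Sdhd: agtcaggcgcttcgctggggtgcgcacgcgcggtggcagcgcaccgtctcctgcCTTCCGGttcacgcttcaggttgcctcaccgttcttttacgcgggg
Sdhb: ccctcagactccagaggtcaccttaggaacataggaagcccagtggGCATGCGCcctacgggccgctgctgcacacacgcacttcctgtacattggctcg
Uqcrh: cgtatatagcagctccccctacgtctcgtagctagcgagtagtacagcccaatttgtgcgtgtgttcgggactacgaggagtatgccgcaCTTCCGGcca

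In Sdhd and Uqcrh the capitals are the ETS core on the opposite strand, CTTCCGG, with its first base at positions −46 and −10 relative to the start. In Ndufa8 and Sdhb they are the NRF1 core, with its first base at −8 and −54. The members with and without each word differed little in size. The median difference was −0.20 in the 5 tested members with the NRF1 core and −0.16 in the 31 without it. It was −0.17 in the 7 with the ETS core and −0.14 in the 29 without, and −0.13 in the 8 with the YY1 core and −0.17 in the 28 without. These medians are descriptions and were not tested.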

How the data were processed

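Groups and replicate numbers came from the sample titles; no label says that the samples came from separate animals, so p-values measure the spread between these 4 samples, which may be technical. RNA (150 ng per sample) was labelled per the labels' protocols. The deposited scanner files hold intensity values that the authors obtained with Feature Extraction from Agilent, version 12.1.1.1 per the file headers (10.7.1.1 in the submitters' processing notes), background subtracted and not normalized between arrays. Flags for control, outlier and well-above-background spots are other values in the deposited files. The authors' deposited log2 values differed between columns from the scanner values by a constant per array within 0.01 for 100% of 35661 probes; their column medians were 0.0071, −0.19, −0.16 and −0.22, their direction is that of the scanner values, and the centring per probe is unknown.

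Spots of a probe were averaged on the log2 scale without control and outlier spots, and the array's 75th percentile was subtracted. Probes well above background on both arrays of a group were kept (37516 of 56605). Of 35886 probes with a RefSeq accession, 32994 (91.9%) were named through the GRCm38.p6 table. The groups were fitted with limma 3.58.1 (R 4.3.3), with Benjamini-Hochberg adjustment over all kept probes (4.35 degrees of freedom, 2.35 from the prior); the fit was tested on simulated data. Intervals are 95%. The number of arrays limits the precision.

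The members and lists were chosen with earlier results of these data known. Full values are given for core subunits and for members whose probes differ by over 0.5. They are also given for up to 3 members per direction and complex with the smallest p. Beside Nrf1, Gabpa, Gabpb1 and Yy1, read for the promoter words, the other lists give their 2 genes with the smallest p. Cell type lists give their first 2 genes. The motif words were chosen in the same way. Same-numbered samples deviated together with r = 0.14 across 35661 probes, and the labels do not pair them. Alternatives are in the closing section.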

Additional observations from a re-analysis of the deposited data

How the results depend on the processing

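The members' median stayed below 0 under every alternative listed in the plan, and 0 members had a limma adjusted p under 0.05 in any of those fits, but sizes and counts depended on the scaling. After quantile normalization 28 members were apart with KO lower and 1 higher, and the medians were −0.093 over the members and −0.075, −0.10, −0.14 and −0.088 for complexes I to IV. After spike-in scaling (6 probes) the counts were 22 and 2, and the medians −0.077 over the members and −0.069, −0.079, −0.12 and −0.061 for complexes I to IV. Normexp with an offset of 50 gave −0.18 over the members and −0.17 for complex I, and 11 members with an unadjusted limma p under 0.05, where 10.85% of all genes had one. Averaging all probes of a gene gave −0.18 for complex II. With each array left out, the ranges were −0.17 to −0.14 for the members, −0.15 to −0.13 for complex I, −0.20 to −0.13 for complex II, −0.28 to −0.16 for complex III and −0.16 to −0.12 for complex IV, with 44 members apart and lower, where 44.6% to 49.3% of all genes were, and 0 or 1 higher; the remaining array of a group was taken to vary as the other group does. The cause of these shifts was not tested.

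Over all probes the count past the adjusted threshold, 0, became 1 after quantile normalization, spike-in scaling, scaling to probes well above background, or without patch spots (local background over 1.5 times the median, with neighbours within 2 rows or columns), 2 under normexp and 4 under the intensity trend. With an array left out it ran from 0 to 98, the latter without control replicate 2. With the replicate block the members' median was −0.16, 0 members passed and 3 had an unadjusted limma p under 0.05, where 10.49% of all genes had one. Among all members, Ndufa2, Ndufa5, Ndufa6, Ndufb9, Ndufs4 and Cox7b were higher in KO after quantile normalization. These and Ndufa9 were higher after spike-in scaling, and Ndufa5 under normexp. With an array left out, 44 to 46 of the 46 were lower, where 61.5% to 64.0% of all genes were. Arrays give no read depth; of 58 member probes, 55 were well above background on all 4 arrays.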

Other observations

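Isoforms of complex IV that are known from muscle, lung and testis were read in a list with related genes, apart from the common ones. Cox8b, the muscle isoform of subunit VIII, read −0.77 and −0.88 in control and −2.04 and −1.79 in KO, a difference of −1.09 (SE 0.13; limma adjusted p 0.273). It was apart by more than its replicate gaps, although it did not pass the adjusted threshold. Cox7b2, a testis isoform, read −1.12 and −0.30 against −3.14 and −1.28, with both groups widely spread. Cox6a2, the muscle isoform of subunit VIa, read −3.34 and −0.14 in control and −2.60 and −0.77 in KO, so the arrays of each group differed far more than the groups did. Cox4i2, the lung isoform of subunit IV, differed by −0.23 and Cox7a1, the muscle isoform of subunit VIIa, by −0.28. The list also held Cox6b2, Cox7a2l and Ndufa4l2, at −0.18, −0.031 and −0.0081, and the groups overlapped in Cox7a2l and Ndufa4l2. Of the 8 tested genes of this list 7 were lower in KO and 4 were apart with KO lower, where 63.9% and 32.1% of all genes were.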
